A study of Homo sapiens with 5 samples.

Results

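The sites described here are wild type ENL peaks in HepG2 cells, a human liver cancer line. They overlapped peaks of β-hydroxybutyrylated histone H3 lysine 9 (H3K9bhb) and none of acetylated H3 lysine 9 (H3K9ac). A site was a peak of the Flag-ENL wild type list on the 24 standard chromosomes that shared at least 1 bp with an H3K9bhb peak and none with an H3K9ac peak. Of 11394 wild type ENL peaks, 793 met this rule, or 6.96% (95% Wilson interval 6.51 to 7.44). They were 11.6% (10.9 to 12.4) of the 6811 wild type ENL peaks on H3K9bhb. The other ENL peaks comprised 6018 on both marks, 2970 on H3K9ac without H3K9bhb and 1613 on neither mark. The sites were thus chosen by the wild type ENL, H3K9bhb and H3K9ac peak calls, so ENL and H3K9bhb peak strength and the distance to H3K9ac are given below as descriptions without a test. The Y78A and H3K9cr peaks, the position relative to genes and the promoter sequence were not used to choose them.

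The study profiled HepG2 cells by CUT&Tag, in which a transposase brought to an antibody cuts and tags the chromatin around it, to ask whether ENL is linked to H3K9bhb. The libraries were Flag-ENL carrying the Y78A substitution, Flag-ENL wild type, H3K9bhb, H3K9ac and H3K9cr (crotonylation), with 1 library each. Cells stably expressed Flag-tagged ENL according to the design text, which names Flag and H3K9bhb antibodies. The sources used here do not say which cells gave the H3K9ac and H3K9cr libraries. They also do not give the promoter and level of the Flag-ENL transgenes, whether endogenous ENL remained, or whether a line was 1 clone. Since every group was a single library, no value has a replicate check, and every interval below is a 95% interval for counting error alone.

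ENL, the product of MLLT1, belongs to transcription elongation complexes and holds acylated lysines of histone H3 in the pocket of its YEATS domain. Tyrosine 78 lines that pocket, and its change to alanine weakens acyl-lysine binding. β-Hydroxybutyrate is the main ketone body, which the liver makes from fatty acids during fasting, and in mouse liver the level of H3K9bhb rises with fasting.

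Promoter sequences carry the sites that lay over a transcription start. Of 34943 unique promoter windows of RefSeq (GRCh38.p14, 250 bases before to 50 bases after the start), 40 had their start inside 34 of the 793 sites. The 7 windows below are printed 5′ to 3′ in the direction of transcription, with every match to a searched motif in capitals. Searched on both strands were the GC box GGGCGG, the CCAAT box CCAAT, the TATA box TATAAA, the ETS core CCGGAAG, the cAMP response element TGACGTCA and the E-box CACGTG, none of which contains another. The first 4 are the window with the highest wild type ENL fold, the pair of windows under the strongest site over coding starts, and the next coding start by fold, which had no Y78A peak. SIN3A, BRD3 and JUND were chosen after their values were seen, for their roles in chromatin and transcription. LOC101927623, a long non-coding RNA gene, lies at chr9:86127290-86127589 (+ strand), MYL11 lies at chr16:30370684-30370983 (+), TBC1D10B at chr16:30370445-30370744 (−) and CDC42BPB at chr14:103057500-103057799 (−). SIN3A lies at chr15:75451641-75451940 (−), BRD3 at chr9:134067977-134068276 (−) and JUND at chr19:18281573-18281872 (−).
LOC101927623: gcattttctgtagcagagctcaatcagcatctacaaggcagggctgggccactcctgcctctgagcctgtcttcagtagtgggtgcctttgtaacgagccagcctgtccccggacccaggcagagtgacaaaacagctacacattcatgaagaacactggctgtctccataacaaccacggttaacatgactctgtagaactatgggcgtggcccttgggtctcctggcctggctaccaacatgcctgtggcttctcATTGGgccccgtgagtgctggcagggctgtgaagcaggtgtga
MYL11: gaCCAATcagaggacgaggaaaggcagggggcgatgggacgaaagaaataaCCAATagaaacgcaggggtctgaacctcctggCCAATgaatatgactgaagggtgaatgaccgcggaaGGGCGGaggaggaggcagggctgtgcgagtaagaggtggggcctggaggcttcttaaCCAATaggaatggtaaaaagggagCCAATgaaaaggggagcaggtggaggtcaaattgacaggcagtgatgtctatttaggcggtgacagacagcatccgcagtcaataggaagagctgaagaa
TBC1D10B: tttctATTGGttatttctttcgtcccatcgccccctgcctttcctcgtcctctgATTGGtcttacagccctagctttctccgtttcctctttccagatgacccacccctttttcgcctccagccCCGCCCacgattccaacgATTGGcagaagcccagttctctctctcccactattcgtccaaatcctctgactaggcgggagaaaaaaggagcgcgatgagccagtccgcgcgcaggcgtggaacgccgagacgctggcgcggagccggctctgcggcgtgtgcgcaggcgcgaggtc
CDC42BPB: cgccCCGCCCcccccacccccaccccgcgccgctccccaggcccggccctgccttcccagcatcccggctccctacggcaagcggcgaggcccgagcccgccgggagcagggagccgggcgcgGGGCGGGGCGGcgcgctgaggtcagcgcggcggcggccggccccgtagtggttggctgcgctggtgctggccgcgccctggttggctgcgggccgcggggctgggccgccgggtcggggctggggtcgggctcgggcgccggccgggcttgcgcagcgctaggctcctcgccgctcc
SIN3A: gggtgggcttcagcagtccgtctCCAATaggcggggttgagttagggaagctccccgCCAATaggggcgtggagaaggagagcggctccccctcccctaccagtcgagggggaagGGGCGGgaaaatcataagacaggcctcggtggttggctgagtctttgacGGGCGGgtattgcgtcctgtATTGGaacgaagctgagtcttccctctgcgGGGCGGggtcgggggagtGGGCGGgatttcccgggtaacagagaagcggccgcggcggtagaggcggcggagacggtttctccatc
BRD3: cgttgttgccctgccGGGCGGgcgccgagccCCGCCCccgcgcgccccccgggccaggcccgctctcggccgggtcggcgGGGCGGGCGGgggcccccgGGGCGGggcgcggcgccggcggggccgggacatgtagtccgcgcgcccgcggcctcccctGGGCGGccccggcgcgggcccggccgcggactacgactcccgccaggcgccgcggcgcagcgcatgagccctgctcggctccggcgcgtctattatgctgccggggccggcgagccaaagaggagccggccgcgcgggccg
JUND: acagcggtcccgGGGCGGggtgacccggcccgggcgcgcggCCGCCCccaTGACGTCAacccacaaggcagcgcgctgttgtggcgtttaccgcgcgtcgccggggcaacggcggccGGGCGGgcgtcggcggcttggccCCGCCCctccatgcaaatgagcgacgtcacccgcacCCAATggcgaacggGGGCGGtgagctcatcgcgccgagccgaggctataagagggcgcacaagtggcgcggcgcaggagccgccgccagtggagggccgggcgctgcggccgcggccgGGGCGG
The windows of the divergent pair MYL11 (fast skeletal muscle myosin light chain) and TBC1D10B (a RAB GTPase-activating protein) both lay inside 1 shared site. Each held CCAAT and GC boxes, but the windows overlap, so some of the CCAAT boxes are the same bases read on opposite strands. BRD3, a bromodomain reader of acetylated histones, and CDC42BPB, a CDC42-dependent kinase, held GC boxes and no CCAAT box. JUND, an AP-1 transcription factor, was the only one of the 40 windows with the cAMP response element, which 1.84% of all windows held.

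The peak lists on the standard chromosomes held 5422 Y78A, 11394 wild type ENL, 9176 H3K9bhb, 31493 H3K9ac and 3852 H3K9cr peaks. Their lowest deposited −log10 q was 2.04, 2.05, 2.02, 1.31 and 1.34 in that order, so the lists were not cut at 1 threshold. The H3K9ac list is so titled, although the peak names it holds start with ENL1, and its title was followed. Total reads per library are unknown, and a site without a Y78A peak is not a measured loss of binding. Of 12 hepatocyte genes, a gene end had a peak in 4 (Y78A), 6 (wild type ENL), 4 (H3K9bhb), 7 (H3K9ac) and 0 (H3K9cr). Of 10 genes of other cell types the same counts were 0, 1, 0, 2 and 0, with PECAM1 and CD8A the ones marked. ALB, AFP, TTR, SERPINA1 and FGB, which define hepatocytes, lacked gene-end peaks in all 5 libraries.

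With the lists as deposited, the sites lay mainly inside genes and between them, and how few were at gene ends depended on the length of the lists. A summit within 1 kb of either end of a protein-coding gene was found at 83 of 793 sites, or 10.5% (8.52 to 12.8), against 43% of all wild type ENL peaks. The same share was 53.2% (51.9 to 54.5) for ENL peaks on both marks, a difference of −42.7 percentage points (−45.1 to −40.1). It was 11.2% (9.77 to 12.9) for ENL peaks on neither mark, and that difference of −0.75 points had an interval that included 0 (−3.29 to 1.98). When every list was limited to its 3852 strongest peaks, 1433 peaks met the rule. The H3K9ac list was thereby cut from 31493 peaks, so these 1433 included peaks that overlap H3K9ac in the deposited list. Of the 1433, 45.5% (42.9 to 48.1) were at gene ends, against 56.1% (53.0 to 59.2) of 962 doubly marked peaks. That difference was −10.6 points (−14.7 to −6.55). Among 1214 unmarked peaks the share at gene ends was 40.1% (37.4 to 42.9).

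Gene bodies away from the ends held 331 sites, or 41.7% (38.4 to 45.2), against 27.8% of all wild type ENL peaks and 22.3% of those on both marks. Only the outermost ends of a gene counted as ends, so gene-body sites include some over internal transcription starts, such as that at SIN3A. Another 243 sites, or 30.6%, lay outside genes within 100 kb of one, against 20.2% of all. Over 100 kb from a protein-coding gene lay 136 sites, or 17.2% (14.7 to 19.9), against 8.97% of all and 8.21% of those on both marks. That last difference was 8.94 points (6.37 to 11.8), but at equal list length its direction was opposite, with 172 of 1433 sites (interval 10.4% to 13.8%) and 172 of 962 doubly marked peaks (15.6% to 20.4%) over 100 kb from a gene. Over 1 Mb from any such gene lay 45 sites on 15 chromosomes, or 5.67% (4.27 to 7.51), against 2.8% of all, 3.14% of those on both marks and 3.53% of those on neither mark. Against neither mark this difference was 2.14 points (0.405 to 4.14). These 45 sites had a median width of 248 bp. No repeat annotation was used and the mapping of repeated sequence is not described, so how many of them lie in repeats was not tested. A Y78A peak overlapped 27 of them, or 60% (45.5 to 73.0), against 86.2% of doubly marked and 22.8% of unmarked ENL peaks at that distance. An H3K9cr peak overlapped 31, or 68.9% (54.3 to 80.5), against 85.2% of doubly marked and 45.6% of unmarked peaks there.

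Read the other way, among wild type ENL peaks on H3K9bhb the share without H3K9ac was 2.53% (2.04 to 3.12) at gene ends, 19.8% (17.9 to 21.7) in gene bodies, 19.9% (17.8 to 22.2) outside genes within 100 kb and 21.6% (18.6 to 24.97) farther out. These shares rest on an H3K9ac list of 31493 peaks and an H3K9bhb list of 9176. At equal list length they were 54.7% (51.9 to 57.5) at gene ends, 74.5% (70.5 to 78.1) in gene bodies, 66.0% (61.0 to 70.7) outside genes within 100 kb and 50% (44.7 to 55.3) farther out, so gene ends no longer had the lowest share. Across chromosomes the sites made up 4.21% (2.42 to 7.21) of wild type ENL peaks on chromosome 15, the lowest share, and 14.1% (8.61 to 22.3) on Y, the highest, where 14 of 99 peaks qualified. The next highest was chromosome 22 with 26 of 247, or 10.5% (7.29 to 14.98).

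**Figure D1:**
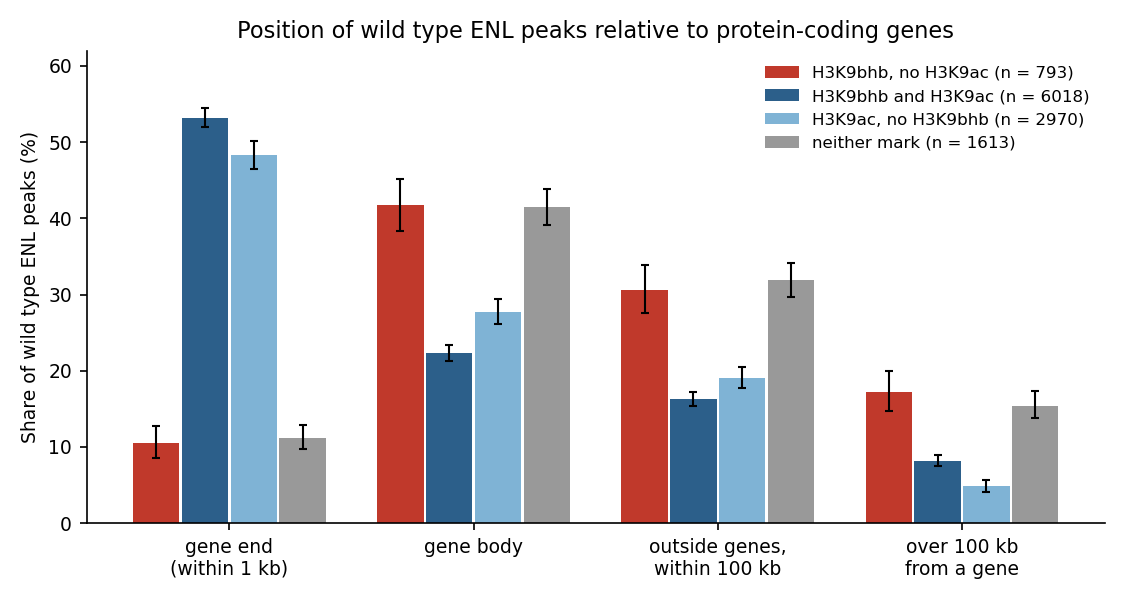
Bars give the share of wild type ENL peaks (%) in each position relative to protein-coding genes for the 4 classes of peak, with 95% Wilson intervals as error bars. Sites on H3K9bhb without H3K9ac (red) stand at 10.5% at gene ends, against 53.2% of doubly marked peaks, and at 17.2% over 100 kb from a gene, with the lists as deposited.

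In strength the sites stood between the doubly marked ENL peaks and the rest. Their wild type ENL fold over the caller's background ranged from 2.04 to 15.9 with a median of 5.04, against medians of 5.57 on both marks, 4.42 on H3K9ac alone and 4.42 on neither. The median −log10 p was 11.4 at the sites, 13.98 on both marks, 9.32 on H3K9ac alone and 9.02 on neither. Median widths followed the same order at 360, 473, 320 and 273 bp. Fold and p came from whole numbers of fragments at the summit, from 9 to 139 at the sites with a median of 22, so many single peaks rest on few fragments.

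The ENL and H3K9bhb peaks coincided closely in position. The wild type ENL and H3K9bhb summits were a median of 56 bp apart, against 57 bp at doubly marked peaks, and 551 of 793 pairs lay within 100 bp. The wild type summit fell inside the H3K9bhb peak at 720 sites, and 791 separate H3K9bhb peaks underlay the 793 sites. H3K9bhb fold at the sites ranged from 2.12 to 11.0 with a median of 4.68.

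Strength changed with position. Gene-end sites had a median of 36 fragments at the summit but a median fold of 4.21, while sites over 100 kb from a gene had 18 fragments and a median fold of 5.69. Gene-body sites lay between, with 21 fragments and a fold of 4.97. High folds far from genes thus rested on few fragments over a low background, and moderate folds at gene ends on many fragments over a higher one.

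**Figure D2:**
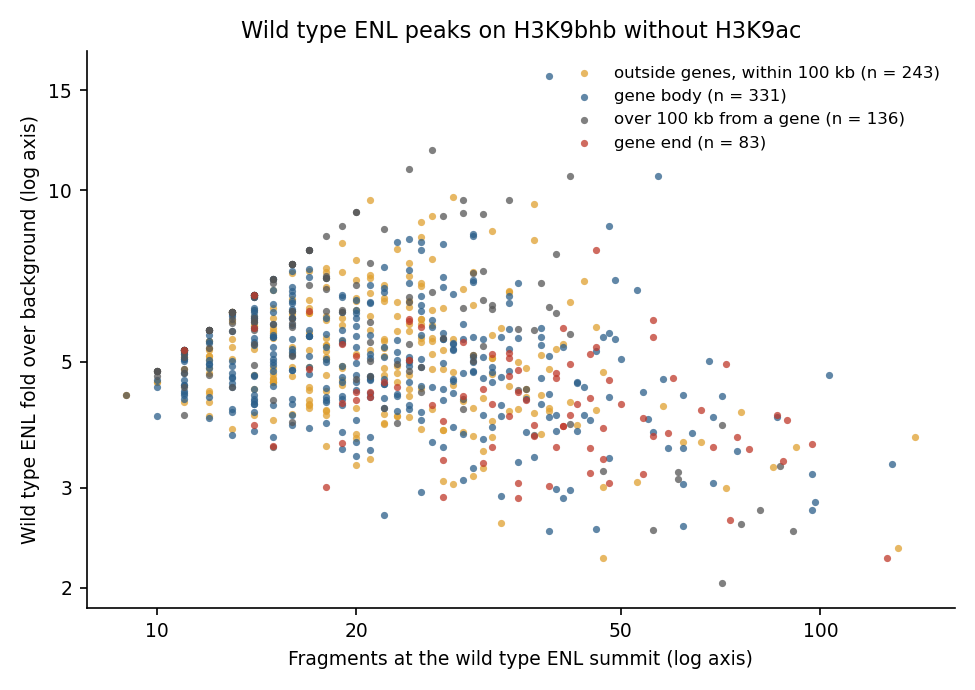
Each point is 1 of the 793 sites, with fragments at the wild type ENL summit on the horizontal axis and fold over the caller's background on the vertical axis, both logarithmic, coloured by position. Gene-end sites (red) lie toward many fragments and low fold (medians 36 and 4.21), and sites over 100 kb from a gene (grey) toward few fragments and high fold (medians 18 and 5.69).

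H3K9ac lay at many distances from the sites, much as it did from ENL peaks on neither mark. The gap to the nearest H3K9ac peak had a median of 9029 bp and ran from 2 bp to 2.62 Mb. It was within 1 kb at 140 sites, within 10 kb at 410 and within 100 kb at 688. Unmarked ENL peaks had a median gap of 7808 bp, with H3K9ac within 1 kb at 296 of 1613. Gene-end sites were nearest, with a median gap of 1016 bp, and 40 of the 83 had H3K9ac within 1 kb. Only 9 sites had H3K9ac within 1 kb on both sides, 6 of them at gene ends and 7 with a Y78A peak.

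At the 1 bp limit itself, the sites just inside were those near ZNF555, a zinc finger gene (gap 2 bp, wild type fold 4.61), PLEKHJ1 (3 bp, 4.21) and PKLR, the liver and red cell pyruvate kinase (3 bp, 4.23). The peaks just outside, on H3K9bhb and touching H3K9ac by the least, were near PCSK1N (8 bp shared, fold 4.50), AKR1C2, a steroid-metabolising reductase (8 bp, 4.27), and MYOM1 (9 bp, 5.72). Of the 6, PLEKHJ1 and MYOM1 had a Y78A peak. The 6 folds, from 4.21 to 5.72, were alike on both sides of the limit.

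**Figure D3:**
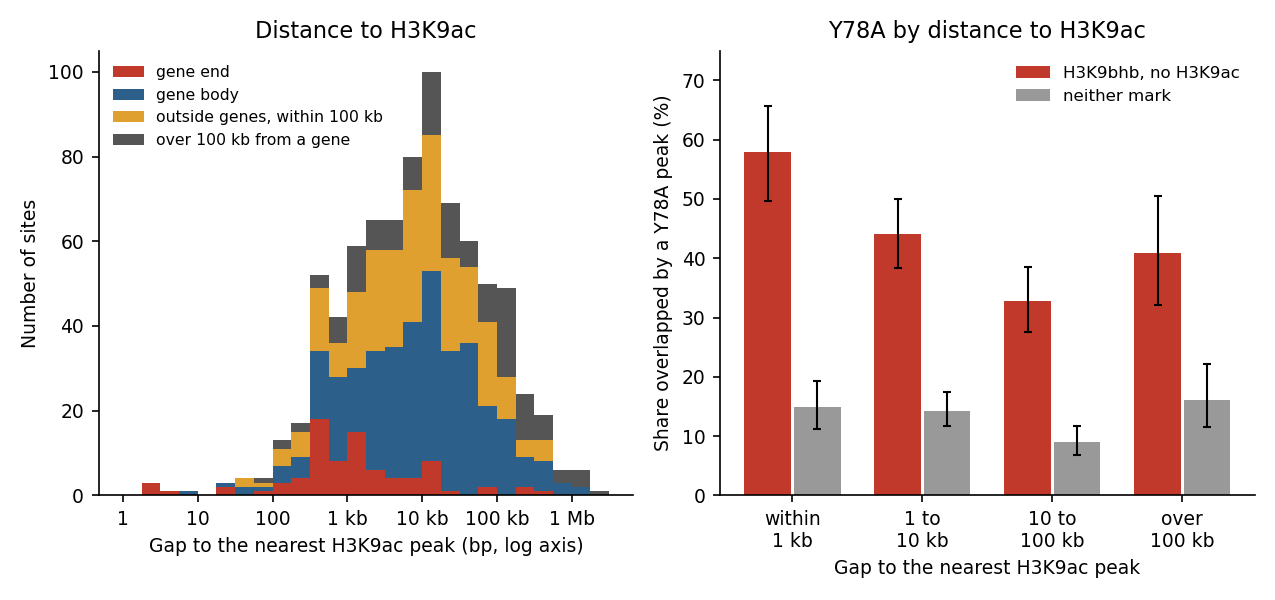
The left panel counts the 793 sites by gap to the nearest H3K9ac peak (bp, log axis), coloured by position, and the right panel gives the share with a Y78A peak (%) by gap for the sites (red) and for ENL peaks on neither mark (grey), with 95% Wilson intervals. The sites stand at 57.9%, 44.1%, 32.7% and 41.0% from the nearest to the farthest bin, each above the 14.9%, 14.3%, 8.99% and 16.1% of unmarked peaks.

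Y78A peaks were found at fewer of the sites than of doubly marked ENL peaks, and at more of them than of ENL peaks without H3K9bhb. A Y78A peak overlapped 334 of 793 sites, or 42.1% (38.7 to 45.6), against 42.9% of all wild type ENL peaks. The share was 62.4% (61.2 to 63.7) on both marks, 20% (18.6 to 21.5) on H3K9ac without H3K9bhb and 12.8% (11.2 to 14.5) on neither. The sites differed from these classes by −20.3 points (−23.9 to −16.6), 22.1 points (18.4 to 25.9) and 29.3 points (25.5 to 33.1). In overlap with the mutant the sites thus lay between peaks on both marks and peaks without H3K9bhb.

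Recovery in Y78A moved strongly with wild type peak strength, so the classes were also compared within 4 equal groups of all wild type ENL peaks ranked by −log10 p. The groups ran from 4.77 to 8.71, to 11.2, to 15.8 and to 326, and held 172, 217, 254 and 150 of the sites. From the weakest to the strongest group a Y78A peak overlapped 13.95%, 24.9%, 51.6% and 83.3% of the sites, against 18.3%, 31.6%, 61.8% and 91.0% of doubly marked peaks. The mean difference within groups was −7.24 points (−10.3 to −4.10), nearer 0 than the unstratified one, and in the weakest group its interval included 0 (−9.61 to 2.16). Against H3K9ac without H3K9bhb the mean within groups was 11.3 points (7.84 to 14.8), and against neither mark 18.1 points (13.9 to 22.5). Within 4 groups of peak width, an alternative chosen after seeing the data, the 3 means were −9.02 points (−12.5 to −5.55), 19.2 points (15.4 to 22.9) and 24.9 points (19.97 to 29.4). When every list was limited to its 3852 strongest peaks, the difference from doubly marked peaks was −0.06 points (−3.19 to 3.16). Y78A then overlapped 81.4% of 1433 sites and 81.5% of doubly marked peaks. Those 1433 included peaks that overlap H3K9ac in the deposited list.

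**Figure D4:**
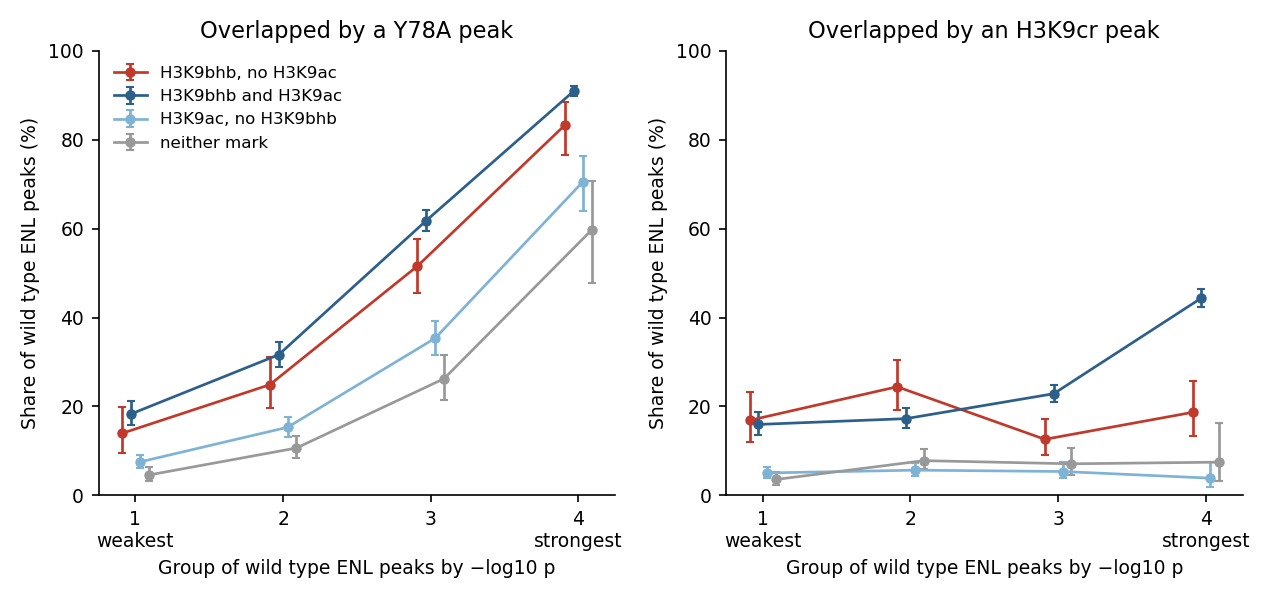
The panels give the share of wild type ENL peaks (%) overlapped by a Y78A peak (left) and by an H3K9cr peak (right) in 4 groups from the weakest to the strongest wild type −log10 p, for the 4 classes, with 95% Wilson intervals. On the left the sites (red) go up with strength from 13.95% to 83.3%, just under doubly marked peaks in each group, and on the right they stay between 12.6% and 24.4% while doubly marked peaks reach 44.4%.

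Position also separated the sites with a Y78A peak from those without. The share was 63.9% (53.1 to 73.4) at gene ends, 35.6% (30.7 to 40.9) in gene bodies, 34.6% (28.9 to 40.7) outside genes within 100 kb and 58.1% (49.7 to 66.0) over 100 kb from a gene. Gene ends exceeded gene bodies by 28.2 points (16.2 to 38.9), and the far sites exceeded gene bodies by 22.4 points (12.5 to 31.8). At gene ends the sites did not differ detectably from doubly marked peaks, of which 60.7% had a Y78A peak (difference 3.14 points, −7.72 to 12.8). In the other 3 positions the sites had fewer, by −22.9, −28.6 and −24.7 points, each with an interval below 0. The median wild type −log10 p was 13.5 at gene-end sites, 10.9 in gene bodies, 11.3 outside genes within 100 kb and 11.7 farther out, and the part of strength in the differences between positions was not tested.

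Distance from H3K9ac gave a like pattern. A Y78A peak overlapped 57.9% (49.6 to 65.7) of the sites with H3K9ac within 1 kb and 32.7% (27.5 to 38.5) of those 10 to 100 kb away, a difference of 25.1 points (15.1 to 34.6). Against unmarked ENL peaks in the same distance bins the sites were higher by 43.0, 29.8, 23.7 and 24.8 points from the nearest bin outward, and all 4 intervals left out 0. Among gene-end sites, 29 of 40 with H3K9ac within 1 kb had a Y78A peak, as did 24 of 43 without.

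Sites with a Y78A peak were the broader and stronger ones. Their median width was 441.5 bp and their median summit held 30 fragments, against 316 bp and 18 fragments at the 459 sites without. At the 334 sites the Y78A fold ran from 2.34 to 11.99 with a median of 5.004, and the Y78A and wild type summits were a median of 55.5 bp apart. Where Y78A was missing it was usually distant, with a median of 100289 bp to the nearest Y78A peak, and only 22 of the 459 had one within 1 kb. From the side of the mutant, 400 of 5422 Y78A peaks, or 7.38%, lay on H3K9bhb without H3K9ac, and 329 of the 400 overlapped a site described here.

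The H3K9bhb peaks themselves less often had a Y78A or wild type ENL peak where no H3K9ac peak overlapped them. Of 1623 H3K9bhb peaks without H3K9ac, 24.6% (22.6 to 26.8) had a Y78A peak and 50.5% had a wild type ENL peak. Of 7553 with H3K9ac, the shares were 51.1% (49.98 to 52.2) for Y78A and 79.9% for wild type ENL. The wild type ENL shares use the same lists that chose the sites and are a description without a test. The shares were not compared within groups of H3K9bhb strength or at equal list length.

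Crotonylation was found at 142 of 793 sites, or 17.9% (15.4 to 20.7), against 19.1% of all wild type ENL peaks. It was found at 29.6% (28.5 to 30.8) of doubly marked peaks, a difference of −11.7 points (−14.5 to −8.66) that was −20.1 points at equal list length and −6.37 points for sites with no H3K9ac within 10 kb, and at 5.22% and 5.83% of ENL peaks on H3K9ac alone and on neither mark. Unlike Y78A, H3K9cr at the sites did not go up with ENL strength. It stood at 16.9%, 24.4%, 12.6% and 18.7% from the weakest to the strongest group, against 15.9%, 17.3%, 22.9% and 44.4% at doubly marked peaks. The differences were 0.91 points (−4.68 to 7.67), 7.17 points (1.44 to 13.7), −10.3 points (−14.3 to −5.23) and −25.7 points (−31.5 to −18.4), so the direction in the second group was opposite to that in the 2 strongest.

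H3K9cr peaks were rare at gene-end sites. They were also rare at gene-end peaks on H3K9ac alone and on neither mark. The count was 1 of 83, or 1.20% (0.213 to 6.51), against 19.6% of doubly marked gene-end peaks, a difference of −18.4 points (−20.1 to −12.9). It was 1.67% on H3K9ac alone and 0.552% on neither mark, and both differences had intervals that included 0 (−1.74 to 4.87 and −2.05 to 5.98 points). In gene bodies 16.9% of sites had H3K9cr, within 100 kb 15.2%, and over 100 kb from a gene 35.3% (27.8 to 43.6), which was below the 70.9% of doubly marked peaks there. Of the sites with H3K9cr, 72 of 142, or 50.7% (42.6 to 58.8), had a Y78A peak, against 262 of 651, or 40.2% (36.5 to 44.1), of those without. That difference was 10.5 points (1.48 to 19.4). Neither a Y78A nor an H3K9cr peak was present at 389 sites.

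The strongest sites by wild type fold also had Y78A peaks. The highest was in the body of HFM1, a meiotic DNA helicase gene, at chr1:91387166-91387545, with a fold of 11.99 in Y78A, 15.9 in wild type ENL, 7.70 in H3K9bhb and 5.22 in H3K9cr. Each fold is the authors' value within its own list and is not a difference between libraries. No repeat annotation or list of artefact-prone regions was applied here, so whether this site lies in such a region was not tested.

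A pair of sites on chromosome 7, at chr7:59995601-59996125 and chr7:58818408-58818911, lay 2.52 Mb and 1.34 Mb from the nearest protein-coding gene, ZNF716. The first had a fold of 11.5 in Y78A, 11.8 in wild type ENL, 8.15 in H3K9bhb and 11.7 in H3K9cr, and the second had 10.6, 10.9, 8.15 and 8.81. Their summits held 26 and 24 wild type fragments. In the GRCh38 assembly this stretch is known as the centromere region of chromosome 7, which holds long tandem repeats, and the mapping of repeated sequence is not described in the sources used here.

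The sites with a Y78A peak named in this paragraph had no H3K9cr. Near ID2, an inhibitor of basic helix-loop-helix factors, a site 0.591 Mb from the gene had folds of 6.30 in Y78A, 10.6 in wild type ENL and 6.38 in H3K9bhb. Near UGT2B15, a liver enzyme that conjugates steroids with glucuronic acid, the folds were 7.59 in Y78A, 9.74 in wild type ENL and 7.74 in H3K9bhb. The site 348 bp from H3K9ac near CPN1, the catalytic subunit of the liver-made carboxypeptidase N, had 7.46 in Y78A, 9.46 in wild type ENL and 7.20 in H3K9bhb. Those near ZNF37A (zinc finger protein), NFE2L3 (a CNC family transcription factor) and UBE3A (an imprinted ubiquitin ligase) lay 0.429, 0.290 and 0.0892 Mb from the genes. Their folds were 10.2, 5.34 and 9.11 in Y78A and 9.61 each in wild type ENL. In each of these, the wild type peak was in the strongest group.

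Without a Y78A peak the highest wild type folds were lower, from 7.42 to 9.01 in the first 10, and most of these sites lay between genes. AWAT1, a skin wax synthase gene, was nearest to the first at chrX:70220281-70220796, with a fold of 9.01 in wild type ENL and 8.39 in H3K9bhb from 26 fragments. TMEM17, a protein of the ciliary transition zone, was nearest to the second, with 8.80 in wild type ENL and 5.69 in H3K9bhb. Next came sites near OR4C12 (an olfactory receptor, 8.66), GARIN1A (8.07), FKBP1A (the FK506-binding protein, 7.90) and LINC02798 (7.86, at 1.40 Mb from it). Sites inside DOK6 (a receptor adaptor, 7.86) and CHP1 (a calcineurin B-like protein, 7.86), and sites near UQCRFS1 (the Rieske protein of respiratory complex III, 7.86) and WSB1 (a SOCS box protein, 7.42), completed them. H3K9cr was present at 3 of these, with folds of 6.20 near OR4C12, 5.96 near UQCRFS1 and 9.46 near WSB1. The 3 lay 1.28 Mb, 2.11 Mb and 0.995 Mb from those genes. Whether they or the LINC02798 site lie in repeated sequence was not tested.

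**Figure D5:**
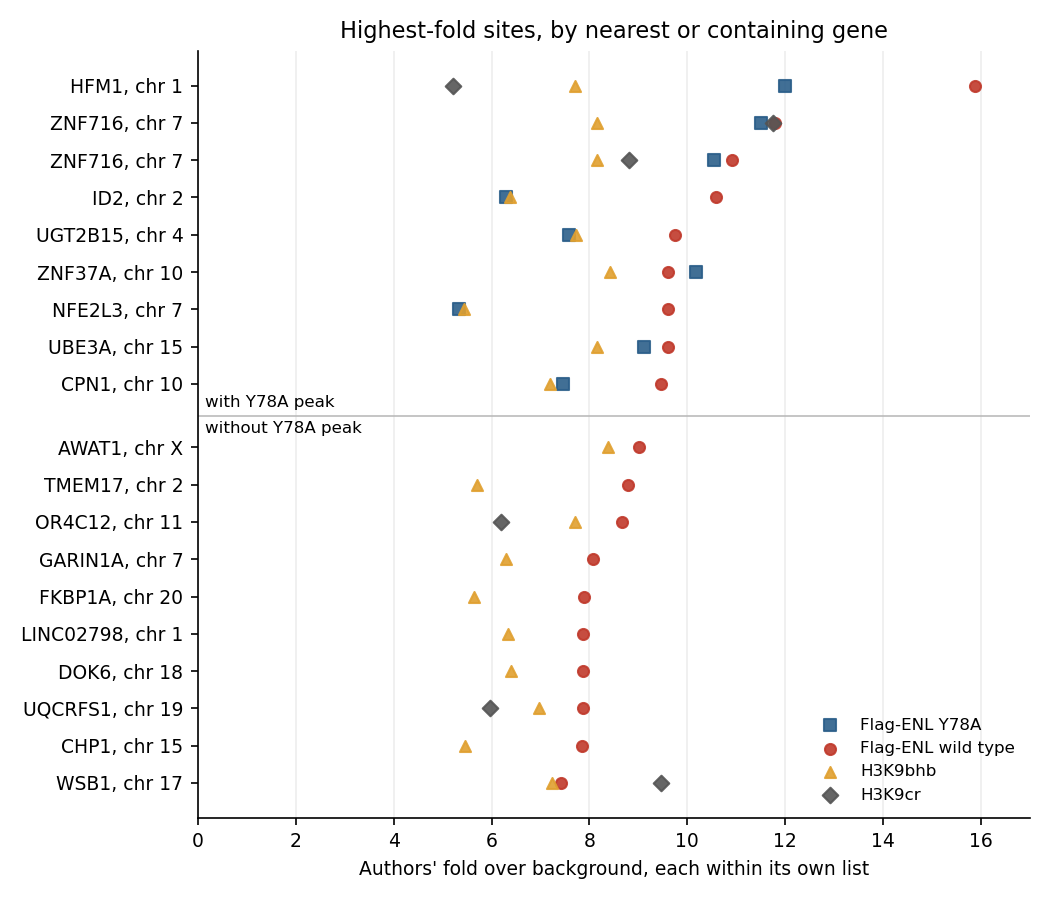
The authors' fold over background is plotted for 9 of the 10 sites of highest wild type fold with a Y78A peak (upper rows) and the 10 without (lower rows), named by the containing or nearest protein-coding gene, with a marker for each list that has a peak there. Wild type folds run from 9.46 to 15.9 in the upper rows and from 7.42 to 9.01 in the lower ones, and folds of different lists are on separate scales.

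The strongest H3K9bhb under ENL without H3K9ac was in PDE10A, a cyclic nucleotide phosphodiesterase, at chr6:165618999-165619715. Its H3K9bhb fold was 11.0, with 7.81 in Y78A and 8.06 in wild type ENL, and the nearest H3K9ac peak was 688498 bp away. A site 0.153 Mb from SPOCK3, a testican proteoglycan gene, had an H3K9bhb fold of 10.9, with 8.66 in Y78A, 6.99 in wild type ENL and 11.4 in H3K9cr, and lay 1.20 Mb from H3K9ac. A site in NCF4, a subunit of the phagocyte NADPH oxidase, had 10.1 in H3K9bhb and 7.23 in wild type ENL with no Y78A peak. Sites near ZNF37A and UQCRFS1 followed at 10.1 and 9.96. A further H3K9cr-bearing site of high fold lay 1.64 Mb from ZNF33B, with 9.24 in Y78A, 9.17 in wild type ENL, 9.21 in H3K9bhb and 9.46 in H3K9cr. Of neighbouring sites, 24 pairs lay within 10 kb of each other, with no run of 3, and whether that is more or fewer than an even spread would give was not tested.

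At gene ends the site of highest fold was at EVI5L, a RAB GTPase-activating protein, at chr19:7829520-7830168, with 7.26 in Y78A, 7.84 in wild type ENL and 5.69 in H3K9bhb. Next were OR2T1, an olfactory receptor (7.19 in Y78A, 6.55 in wild type ENL), and HPN, the hepatocyte surface protease hepsin (6.13 in wild type ENL, no Y78A peak). FLVCR2, a membrane transporter (5.95 in wild type ENL, no Y78A peak), came before the shared MYL11 and TBC1D10B site, with 6.22 in Y78A, 5.91 in wild type ENL and 4.92 in H3K9bhb. These 5 sites lay from 410 bp (EVI5L) to 344134 bp (OR2T1) from H3K9ac.

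Of the 34 sites over a transcription start, 24 had a Y78A peak, 2 had H3K9cr and 14 had H3K9ac within 1 kb. Of all wild type ENL peaks, at any position, 42.9% had a Y78A peak and 19.1% had H3K9cr. Among doubly marked gene-end peaks these shares were 60.7% and 19.6%. The shares for other ENL peaks over a start are not given here. The sites of the printed windows illustrate the range among the 34. SIN3A, the scaffold of a histone deacetylase corepressor, had a fold of 3.97 in Y78A, 4.35 in wild type ENL and 4.05 in H3K9bhb, with H3K9cr and with H3K9ac 454 bp away. JUND had 4.36 in Y78A, 3.59 in wild type ENL and 4.35 in H3K9bhb. BRD3 had 4.33 in wild type ENL and 4.73 in H3K9bhb without a Y78A peak, as did CDC42BPB (5.76 and 4.31) and LOC101927623 (7.30 and 6.61).

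In base composition these promoters were like those under each of the other classes of ENL peak. The median G+C content was 64.5% in the 40 windows, 66.3% in 3766 windows under doubly marked peaks and 58.7% over all windows, and the median number of CpG pairs was 26.5, 28 and 14. A GC box was present in 70.0% (54.6 to 81.9) of the 40, against 79.9% under doubly marked peaks and 44.9% of all. A CCAAT box was present in 55.0% (39.8 to 69.3), against 45.5% and 34.6%, and a TATA box in 7.5%, against 3.51% and 11.6%. The ETS core was in 15%, against 21.8% and 10.2%, while the cAMP response element and the E-box were in 1 window each. Under ENL peaks on H3K9ac alone and on neither mark the median G+C content was 65.7% and 65.5%. A GC box was in 72.0% and 68.2% of those windows. All 6 differences from windows under doubly marked peaks had intervals that included 0, and with 40 windows the interval for the GC box ran from −25.4 to 2.10 points. Windows of 1 gene, or of neighbouring genes such as MYL11 and TBC1D10B, can overlap and share motifs.

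Each of the 8 gene lists, on liver functions, ENL's own machinery and other tissues, held 1 or 2 genes with a site. Of 20037 protein-coding genes, 436, or 2.18%, had a site within the gene or within 1 kb of it, and 24.5% had a doubly marked ENL peak there. Of 30 genes of liver secreted proteins 2 had a site, with doubly marked peaks at 6. The site beside APOA2, an apolipoprotein of HDL, had 4.45 in Y78A, 4.11 in wild type ENL and 3.52 in H3K9bhb. The other lay inside SRPRB and within the range of TF, the transferrin gene, with 6.16 in wild type ENL and 4.74 in H3K9cr.

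Among 30 liver transcription factors the site was at NR0B2, the bile acid-responsive repressor SHP, with 3.02 in Y78A, 2.63 in wild type ENL and 2.79 in H3K9bhb, and 12 of the 30 had doubly marked peaks. Among 30 genes of fatty acid oxidation and ketone bodies, ETFB, the electron transfer flavoprotein that takes electrons from acyl-CoA dehydrogenases, held 2 sites in its body. Their folds were 3.23 and 2.81 in Y78A and 3.17 and 2.83 in wild type ENL, and 9 of the 30 had doubly marked peaks. Of 25 fasting and gluconeogenesis genes 2 had a site, namely IGFBP1, an insulin-repressed binding protein of insulin-like growth factors (3.54 in wild type ENL, no Y78A peak), and SESN1 (4.65, in a stretch shared with ARMC2). Doubly marked peaks were at 7 of the 25.

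The 27 cholesterol and lipid synthesis genes included FDPS, whose site was the one at PKLR named above, and 16 had doubly marked peaks. In the list of 34 elongation complex and YEATS genes the site was in DOT1L, the H3K79 methyltransferase, with 4.36 in Y78A, 3.99 in wild type ENL and 3.90 in H3K9bhb, beside doubly marked peaks at 17. Among 30 acylation enzymes and readers there were sites at the bromodomain genes BRD2 (4.76 in Y78A, 4.42 in wild type ENL) and BRD3, beside doubly marked peaks at 13. In 40 genes of other tissues ACTN2, a muscle actinin (4.93 in Y78A, 5.48 in wild type ENL), and GRIN1, a neuronal glutamate receptor subunit (5.52 in Y78A, 5.62 in wild type ENL), had sites, beside doubly marked peaks at 4. The share of genes with a site ran from 2.94% in the elongation and YEATS list to 8% in the fasting and gluconeogenesis list, all above the 2.18% of all genes, but with 1 or 2 genes a list and no test against it.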

How the data were processed

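HepG2 cells were profiled in 5 CUT&Tag libraries, with 1 peak list per library and the group read from its title. Per the submitters' processing notes, the authors used FastQC, Bowtie2, MACS2 and deepTools with the build hg38. Versions, settings, control library, duplicate removal and mapping filters are not stated in the sources used here. In the deposited lists the fold is the ratio of summit signal to the caller's background. The p and q values were deposited as −log10, and the deposited score follows the q value. These values were used only to describe, rank and divide the peaks of 1 list. Of all 11394 wild type peaks, 11393 had a fold and p that came from a whole number of fragments within a relative tolerance of 3e-05. Library depth is otherwise unknown.

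Overlaps (at least 1 bp), shares with Wilson and differences with Newcombe 95% intervals were computed with Python 3.11.15, numpy 2.4.6, pandas 2.3.3 and scipy 1.17.1, and checked on simulated data and against bedtools 2.31.1. Intervals cover counting error only, and no p-value was computed. Gene positions came from RefSeq (GRCh38.p14, the assembly also called hg38; 20037 protein-coding genes). The gene table gives no strand, so a gene end is either end. The members, the gene lists and the comparisons were chosen with earlier results of these data known. Named sites were those of highest wild type fold with and without Y78A (10 each), with H3K9cr, at gene ends, over 100 kb from a gene (5 each), of highest H3K9bhb fold (5), nearest the 1 bp limit (3 each side), and those in the 8 gene lists; 1 site so named is left out. Alternatives varied the overlap, the distance to H3K9ac, the threshold, the list length, the contigs, the gene-end window and the grouping by strength. No sequence other than RefSeq promoters was used. No repeat annotation or list of artefact-prone regions was applied to any peak list.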

Additional observations from a re-analysis of the deposited data

Results flagged for a closer look

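Peaks on unplaced and alternate contigs were outside the comparisons above. There, 58 wild type ENL peaks lay on H3K9bhb without H3K9ac. They were 9.08% (95% Wilson interval 7.09 to 11.6) of the 639 wild type ENL peaks on such contigs, against 6.96% on the standard chromosomes, were spread over 38 contigs, and 28 of them had a Y78A peak. The mapping of reads that fit several places is not described in the sources used here, and its part was not tested.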

How the results depend on the processing

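The number of sites was 383 when no H3K9ac peak was allowed within 10 kb and 1433 when every list was limited to its 3852 strongest peaks, and stayed between 653 and 962 under the other 6 alternatives. The 6 differences of shares gave 56 values under their alternatives, of which 55 kept their direction with an interval that left out 0. The exception was the Y78A difference from doubly marked peaks at equal list length, −0.0593 points (−3.19 to 3.16). At that setting the weaker H3K9ac peaks were left out, so the 1433 sites included peaks that overlap H3K9ac as deposited. The part of this in the exception was not tested. Under its other 9 alternatives the Y78A difference from doubly marked peaks ran from −27.5 to −7.24 points. The Y78A difference ran from 18.1 to 30.8 points against neither mark and from 11.3 to 37.0 points against H3K9ac alone, and the H3K9cr difference from −20.1 to −6.37 points. The gene-end difference ran from −49.6 to −10.6 points and the gene-body difference from 12.6 to 22.4 points. At equal list length the share over 100 kb from a gene was lower at the sites than at doubly marked peaks, opposite to the direction with the lists as deposited, and the cause was not tested. Grouping by peak width was chosen after seeing the data. No paired analysis was possible because each group had 1 library, and no library could be left out. Longer lists overlap more peaks, so shares depend on call thresholds and on depth, which is unknown here.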

Other observations

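Non-coding genes lay near some of the sites, counted within 500 bp. Long non-coding RNA genes were near 126 of 793 sites, or 15.9% (13.5 to 18.6), against 22.7% of doubly marked ENL peaks, a difference of −6.86 points (−9.47 to −3.96), and 17.4% of ENL peaks on neither mark (difference −1.53 points, −4.59 to 1.70). Transcribed pseudogenes were near 3 sites, or 0.378%, against 2.09% of doubly marked peaks, a difference of −1.72 points (−2.18 to −0.915).

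Transfer RNA genes were near 2 sites, or 0.252%, against 0.432% of doubly marked peaks, 0.707% on H3K9ac alone and 0.372% on neither mark. One of the 2 sites was near the glutamate and glycine genes TRE-CTC1-5 and TRG-TCC2-5 on chromosome 1. It had a wild type ENL fold of 3.07 and no Y78A peak. The other was near the leucine genes TRL-CAG2-1 and TRL-CAG2-2 on chromosome 16, with 4.01 in Y78A and 3.93 in wild type ENL. Small nuclear RNA genes were near 0.252% of the sites, 0.332% of doubly marked peaks, 0.438% on H3K9ac alone and 0.620% on neither mark. The U2 small nuclear RNA gene RNU2-2 had a site with 4.68 in Y78A, 3.98 in wild type ENL and 2.92 in H3K9bhb. For ribosomal RNA genes the 4 shares were 0.252%, 0.0665%, 0% and 0.372% in that order. Differences between the shares of these 3 kinds of gene were not tested. The ribosomal RNA gene RNA45SN3 on chromosome 21 had 2 sites, with wild type folds of 2.04 and 2.52, of which the second had a Y78A peak of fold 2.34. Such genes have near-identical copies, and which copy the fragments came from cannot be told apart here. These sites were looked up after the values were seen.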
